A study of Homo sapiens with 8 samples.

Results

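The levels of 10 endothelial genes were followed across 2 melanoma lines and 2 arms: CDH5, PECAM1, ESAM, TIE1, KDR, EPHA2, ROBO4, ERG, EGFL7 and VWF. They are 10 of the 18478 genes in the authors' table and were matched through their Entrez identifiers; all 10 were present. They were picked as genes that aggressive melanoma cells can express, with markers of true endothelium beside them. Measured values of these data took part in that choice, so every level and ratio of these genes is a description and none was tested.

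RNA-seq was analysed from C8161 and A2058, established human melanoma cell lines grown in DMEM with 10% fetal bovine serum and a low dose of penicillin and streptomycin. The groups were C8161 with retrovirally introduced ATF3, the C8161 neomycin control, A2058 with retrovirally introduced ATF3 and the A2058 neomycin control; ATF3 is a transcription factor of the ATF/CREB family that many stresses induce. The labels give 3 libraries for each C8161 arm and 1 for each A2058 arm, 8 in all, and do not say whether the C8161 libraries were separate cultures. The table holds 1 combined RPKM value per gene for each C8161 arm and 1 value for each A2058 library, so no value below has a replicate error and no p-value could be given.

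Vasculogenic mimicry is the formation of perfused, tube-like networks by tumour cells themselves, and it was first described in aggressive melanoma. VE-cadherin and EPHA2 are the proteins most tied to it, since VE-cadherin at cell contacts positions EPHA2 at the membrane and both act upstream of kinase signalling and laminin cleavage. In endothelium the same genes build junctions (CDH5, PECAM1, ESAM), receive guidance and growth signals (TIE1, KDR, EPHA2, ROBO4), set endothelial identity (the ETS factor ERG) and act outside the cell (EGFL7 and VWF). Network formation itself was not analysed here.

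RPKM scales reads by transcript length and by the mapped reads of the library, so levels of different genes below are compared per length. A gene was compared between 2 columns if it had at least 1 RPKM in at least 1 of them, and the log2 ratio was taken on RPKM + 1, which understates differences of low genes. With no test possible, size stood in for one: a gene is called higher or lower at a log2 ratio of 0.5 or more in either direction between arms and of 1 or more between lines.

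The columns were alike in total, with sums of 470633 to 481302 RPKM, and ATF3 differed between arms the way the labels state. ATF3 stood at 62.57 RPKM in C8161 with ATF3, against 4.76 in its neomycin control, a 13.1-fold difference. In A2058 it stood at 4.71 RPKM with ATF3 and 1.22 with neomycin, a 3.86-fold difference. The introduced and the endogenous copy are not separated by these values. Of 8 melanocyte lineage markers, all 8 had at least 1 RPKM in both A2058 arms, with summed levels of 1546.97 RPKM with ATF3 and 1510.04 with neomycin. In C8161 they summed to 1.74 and 1.6 RPKM, of which MITF gave 1.02 and 0.95; each of the other 7 markers of the labelled cell type was at most 0.33 RPKM there.

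In C8161, 5 of the 10 genes stood clearly above 5 RPKM in both arms: EPHA2, TIE1, ROBO4, CDH5 and EGFL7. In A2058 only EGFL7 and EPHA2 did. CDH5 was the single gene called different between arms in either line, 2.05-fold higher in C8161 with ATF3. PECAM1, KDR and VWF, endothelial markers like CDH5, TIE1 and ROBO4, were at most 0.34 RPKM in all 4 columns. RNA came from whole cultures, in which fewer cells of a type and less RNA per cell cannot be told apart.

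Promoter sequences are shown for the receptors and the secreted factor that separate the lines, so that the letters upstream of genes with like and unlike levels can be read side by side. RefSeq entries of GRCh38.p14 (the hg38 assembly) were available for 6 of the 10 genes; CDH5, ESAM, PECAM1 and VWF are named only. Each run is the 250 bases before the start site, read 5′ to 3′ on the strand of the gene. Capitals mark matches on either strand to CAGGAA or CCGGAA, ETS-type motifs, and to TGACGTCA, the palindromic CRE motif of the ATF/CREB family. The EPHA2 window is chr1:16156070-16156319 on the minus strand, the TIE1 window chr1:43300732-43300981 on the plus strand, the ROBO4 window chr11:124897866-124898115 on the minus strand, and the EGFL7 window, of the first of its 2 listed starts, chr9:136658606-136658855 on the plus strand.
EPHA2: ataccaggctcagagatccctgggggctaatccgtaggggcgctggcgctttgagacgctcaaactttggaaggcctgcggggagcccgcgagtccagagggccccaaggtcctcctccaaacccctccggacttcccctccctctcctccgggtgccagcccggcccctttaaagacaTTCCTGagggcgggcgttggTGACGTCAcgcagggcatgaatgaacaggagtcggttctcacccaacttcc
TIE1: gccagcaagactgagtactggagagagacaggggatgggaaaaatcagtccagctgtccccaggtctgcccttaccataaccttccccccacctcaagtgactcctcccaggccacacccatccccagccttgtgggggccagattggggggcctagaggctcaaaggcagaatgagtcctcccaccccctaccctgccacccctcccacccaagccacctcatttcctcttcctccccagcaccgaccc
ROBO4: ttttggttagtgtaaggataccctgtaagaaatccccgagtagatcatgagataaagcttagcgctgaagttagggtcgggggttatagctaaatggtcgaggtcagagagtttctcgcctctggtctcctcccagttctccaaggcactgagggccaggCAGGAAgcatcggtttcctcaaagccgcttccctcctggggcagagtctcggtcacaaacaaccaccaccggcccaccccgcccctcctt
EGFL7: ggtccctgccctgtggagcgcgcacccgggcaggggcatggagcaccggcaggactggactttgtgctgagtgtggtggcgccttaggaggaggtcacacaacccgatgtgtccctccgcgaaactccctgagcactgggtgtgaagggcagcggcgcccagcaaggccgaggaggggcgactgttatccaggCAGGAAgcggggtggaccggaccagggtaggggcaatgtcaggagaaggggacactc

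CAGGAA, or TTCCTG on this strand, was found once each in the EPHA2, ROBO4 and EGFL7 windows, at −71 to −66, −90 to −85 and −57 to −52 from the start. These letters occur in 24.1% of the 35116 promoter windows of the same length, and CCGGAA, found in none of the 4, in 14.5%. The TIE1 window held neither set of letters. EPHA2 alone of the 4 held TGACGTCA, at −51 to −44, a motif present in 1.65% of all windows. The GC content was 63.2% for EPHA2, 61.6% for TIE1, 54.8% for ROBO4 and 66.4% for EGFL7, against a median of 58% over all windows. TGANTCA, an AP-1 motif found in 6.57% of all windows, and TATAAA, found in 10.7%, were in none of the 4. GGGCGG, an SP1-type motif found in 42.6% of all windows, was in the EPHA2 and ROBO4 windows. The EPHA2 window held 15 CpG pairs and the TIE1 window 1, with a median of 11 over all. Among the other genes with a sequence, the KDR window had neither ETS-type motif and no CRE match, the second EGFL7 window held 1 CAGGAA match, and 2 of the 4 listed ERG windows, which overlap each other, held the same CAGGAA match. A match describes letters only, and the absence of one says only that these letters are not in the window.

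**Figure D1:**
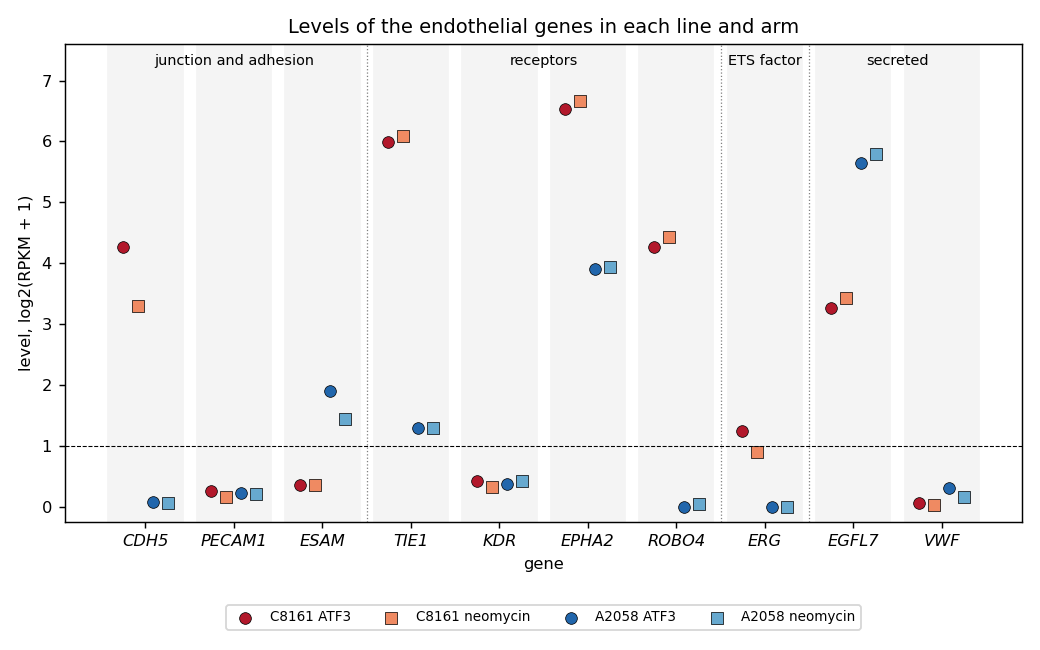
Level of each of the 10 genes in log2(RPKM + 1) (vertical axis), grouped by role along the horizontal axis, with 1 point per line and arm and the dashed line at 1 RPKM. EPHA2, TIE1, ROBO4 and CDH5 are higher in both C8161 columns, EGFL7 is higher in both A2058 columns, and PECAM1, KDR and VWF lie below the dashed line in every column.

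The first comparison asked which of these genes differed between C8161 with introduced ATF3 and its neomycin control. CDH5 encodes VE-cadherin, the adhesion molecule of endothelial adherens junctions (Entrez gene 1003, chr16:66366691-66404784 in GRCh38). It stood at 18.14 RPKM with ATF3 and at 8.86 RPKM with neomycin, a log2 ratio of 0.96. With ATF3 its level was thus at the height of ROBO4, below which it stood in the control. Its ratio was the 4th highest of the 10941 genes compared. The 3 higher ones were ATF3 itself and 2 genes named after their values were seen: MSMP, at 2.48 RPKM with ATF3 and 0.50 with neomycin, and ABHD14A-ACY1, a readthrough gene that shares sequence with its parent genes, at 2.09 and 0.50. CDH5 was therefore the one gene called higher among the 6 endothelial genes compared, where 0.183% of all genes compared were called higher; the choice of genes used this contrast, so nothing is read from that share.

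The other adhesion genes were low in both C8161 arms. PECAM1, a homophilic adhesion molecule at endothelial and platelet contacts, had 0.20 RPKM with ATF3 and 0.11 with neomycin. ESAM, an immunoglobulin-family molecule of endothelial tight junctions, had 0.28 RPKM in both arms. Both stayed under the 1 RPKM minimum and were not compared.

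The receptors lay close to their controls. EPHA2, a receptor tyrosine kinase for ephrin-A ligands (chr1:16124337-16156069), had 91.32 RPKM with ATF3 and 100.18 with neomycin, a log2 ratio of −0.13. TIE1, an endothelial receptor tyrosine kinase that modulates angiopoietin signalling through TEK (chr1:43300982-43323108), had 62.77 RPKM with ATF3 and 67.20 with neomycin, a log2 ratio of −0.10. ROBO4, an endothelial member of the roundabout receptors that stabilises vessels (chr11:124883691-124897865), had 18.14 RPKM with ATF3 and 20.48 with neomycin, a log2 ratio of −0.17. All 3 ratios were negative and none reached the call size. After trends with GC content and transcript length had been removed they were −0.04 for EPHA2, −0.00 for TIE1 and −0.09 for ROBO4. KDR, the main receptor for VEGF-A in endothelium, had 0.34 RPKM with ATF3 and 0.25 with neomycin and was not compared.

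ERG, an ETS transcription factor that drives endothelial genes including CDH5 (chr21:38367261-38661783), was the other gene of the 6 with a positive ratio. It had 1.36 RPKM with ATF3 and 0.86 with neomycin, a 1.58-fold difference and a log2 ratio of 0.34, the 80th highest of those compared. This was not called, since the added 1 weighs heavily at such a level; with 0.1 added in its place the ratio was 0.60. ERG and CDH5, at very different levels, were the 2 of the 6 genes compared with more RNA per length in the ATF3 column. A link between the 2 was not tested.

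The secreted genes showed no called difference. EGFL7, a matrix-bound regulator of vessel tubulogenesis and of Notch signalling (chr9:136658856-136672678), had 8.58 RPKM with ATF3 and 9.75 with neomycin, a log2 ratio of −0.17 that became 0.02 after removal of GC and length trends. VWF, the multimeric glycoprotein that captures platelets, had 0.04 RPKM with ATF3 and 0.02 with neomycin. None of the 6 genes compared was called lower, with 0.0914% of all genes compared called lower. Their median log2 ratio was −0.11, against 0.01 over all genes compared.

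**Figure D2:**
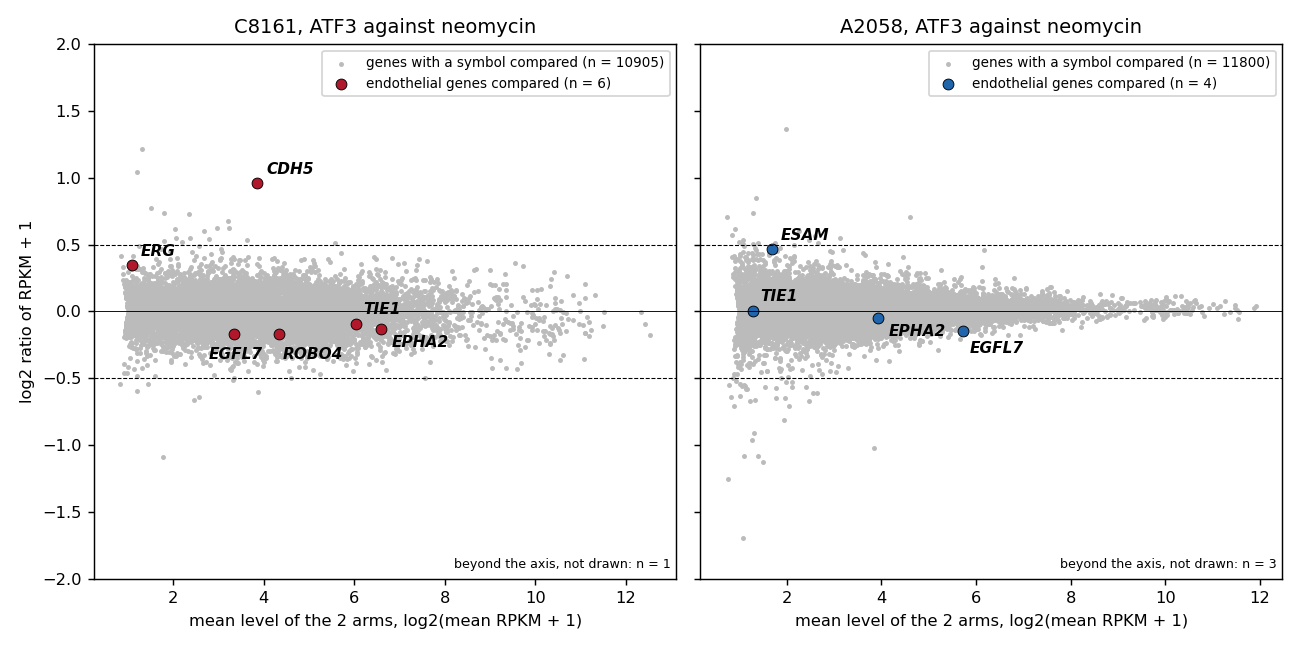
Log2 ratio of ATF3 over neomycin on RPKM + 1 (vertical axis) against the mean level of the 2 arms (horizontal axis), C8161 on the left and A2058 on the right, with grey points for genes with a symbol, coloured points for the endothelial genes compared and dashed lines at the call size of 0.5. CDH5 stands at 0.96 in C8161, above the grey points near its level, whereas EPHA2, TIE1, ROBO4 and EGFL7 lie inside it.

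The same question in A2058 rested on 1 library per arm and on 4 of the 10 genes. ESAM came closest to a call, at 2.73 RPKM with ATF3 and 1.70 with neomycin, a 1.61-fold difference and a log2 ratio of 0.47. That was the 31st highest of 11883 genes compared, and rested on about 112 reads with ATF3 and 70 with neomycin, estimated from the steps between low values. With 0.5 or 0.1 added in place of 1 its ratio was 0.55 or 0.65, past the call size. ESAM is therefore a difference whose call depends on the added constant, at a level of a few RPKM.

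TIE1 had 1.45 RPKM in both A2058 arms and a log2 ratio of 0.00. EPHA2 had 13.88 RPKM with ATF3 and 14.38 with neomycin, a log2 ratio of −0.05. EGFL7 had 48.99 RPKM with ATF3 and 54.35 with neomycin, a log2 ratio of −0.15, the 840th lowest. No gene of the 4 was called higher, with 0.21% of all genes compared called higher, and none was called lower, with 0.328% called lower.

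The remaining 6 genes were below 1 RPKM in both A2058 arms. CDH5 had 0.05 RPKM with ATF3 and 0.04 with neomycin, about 3.6 and 2.9 reads. ROBO4 was listed at 0 with ATF3 and had 0.03 RPKM with neomycin, about 2.5 reads, and ERG was listed at 0 in both arms. At about 17600000 reads for the ATF3 library and 17550000 for the control, a difference as small as that between the CDH5 values was not detectable. PECAM1 had 0.17 RPKM with ATF3 and 0.15 with neomycin, KDR had 0.29 and 0.34, and VWF had 0.23 and 0.12, about 36 and 19 reads.

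The difference between lines of the ATF3 ratio, C8161 minus A2058, could be formed for 3 genes and was not tested. It was −0.10 for TIE1, −0.08 for EPHA2 and −0.02 for EGFL7. For CDH5 it could not be formed, because CDH5 was not compared in A2058; whether ATF3 goes with a different CDH5 change in the 2 lines cannot be read from these data.

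The second comparison set C8161 against A2058 within each arm. The neomycin controls already differed by far more than the arms did. TIE1 had 67.20 RPKM in the C8161 control and 1.45 in the A2058 control, 46.3-fold higher with a log2 ratio of 4.80. EPHA2 had 100.18 RPKM in C8161 and 14.38 in A2058, 6.97-fold higher with a log2 ratio of 2.72. Both were called higher in C8161.

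ROBO4 had 20.48 RPKM in the C8161 control and 0.03 in the A2058 control, a log2 ratio of 4.38 on RPKM + 1. CDH5 had 8.86 RPKM in C8161 and 0.04 in A2058, a log2 ratio of 3.25. For both, the A2058 level is of the order of 3 reads, so no fold is given.

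EGFL7 ran the other way, with 9.75 RPKM in the C8161 control and 54.35 in the A2058 control, 5.57-fold higher in the A2058 control with a log2 ratio of −2.36 that became −1.59 after removal of GC and length trends. ESAM did so too, at 0.28 RPKM in C8161 and 1.70 in A2058, a log2 ratio of −1.08. ESAM lost its call, at −0.65, −0.89 and −0.95, under quantile normalization, a median ratio of 0 and removal of GC and length trends. Of 6 genes compared, 4 were called higher in C8161, with 9.36% of all genes compared, and 2 were called lower, with 20.7% of all.

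In the ATF3 columns the order was alike, with TIE1 at a log2 ratio of 4.70, ROBO4 at 4.26, CDH5 at 4.19 and EPHA2 at 2.63. EGFL7 stood at −2.38, which became −1.44 after removal of GC and length trends, and ESAM at −1.54. ERG was compared here only, at 1.36 RPKM in C8161 and listed at 0 in A2058, a log2 ratio of 1.24. With 0.1 added in place of 1, ratios of genes near 0 in one line grew, to 7.51 for ROBO4, 6.93 for CDH5, 3.87 for ERG and −2.90 for ESAM, and in the neomycin columns to 7.31 for ROBO4, 6.0 for CDH5 and −2.24 for ESAM. In the ATF3 columns 5 genes of 7 were called higher, with 9.92% of all genes compared, and 2 were called lower, with 21.4% of all. The 2 arms are separate columns of the same lines, and each line comparison is 1 line against 1 line. The median log2 ratio of all genes was −0.19 in the neomycin columns and −0.18 in the ATF3 columns, and quantile normalization moved these to 0.05 and 0.06. Under that scaling every ratio of the genes compared stayed past the call size except that of ESAM in the neomycin columns.

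Within a column, the order of the genes per length also differed between the lines. In the C8161 ATF3 column it ran EPHA2, TIE1, CDH5 level with ROBO4, EGFL7, ERG and then KDR, ESAM, PECAM1 and VWF below 1 RPKM. In the C8161 control ROBO4 came before EGFL7 and EGFL7 before CDH5. In both A2058 columns the order ran EGFL7, EPHA2, ESAM and TIE1, with the other 6 below 1 RPKM. With 1 value per column, neighbours in these orders, such as CDH5 and EGFL7 in the C8161 control, cannot be told apart by any measured spread. Among all 18478 genes, EPHA2 in the C8161 control lay at or above 95.8% of genes, TIE1 at or above 93.5%, ROBO4 80.0%, EGFL7 67.4% and CDH5 65.7%. CDH5 lay at or above 78.2% in the ATF3 column.

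Next, the 10 genes were set beside a wider list of endothelial markers, of which 42 were in the table. At least 1 RPKM in at least 1 arm was reached by 14 markers in C8161 and by 12 in A2058. Of these, 7 did so in both lines, which is 50% of the C8161 markers and 58.3% of the A2058 markers. The list includes genes described above, which were chosen with their values known. Without them, 9 of 33 markers reached that level in each line and 5 in both, a share of 55.6% either way. Over all genes of the table, these shares were 94.4% of the genes at that level in C8161 and 86.9% of those in A2058. Of the 42 markers, 7 reached it in C8161 alone, 5 in A2058 alone and 23 in neither line.

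In C8161 the set included ECSCR, an endothelial surface sialomucin, at 122.67 RPKM with ATF3 and 126.11 with neomycin, where A2058 had 0.50 and 0.19. SOX7, an endothelial SOX factor, had 8.92 RPKM with ATF3 and 6.86 with neomycin in C8161, and 0.17 and 0.11 in A2058. In A2058 the set included RASIP1, a regulator of endothelial lumen formation, at 44.34 and 43.78 RPKM, where C8161 had 0.17 and 0.13. SOX18, another endothelial SOX factor, had 0.24 and 0.18 RPKM in C8161 and 5.30 and 4.60 in A2058. FLI1, the ETS factor closest to ERG, was well above 1 RPKM in all columns, at 23.25 and 19.44 in C8161 and 12.06 and 11.10 in A2058.

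Leaving out the genes described, the other 33 markers included 9 that could be compared between the C8161 arms. Over all genes compared, 52.0% of the ratios between arms were positive in C8161 and 51.3% in A2058. None of the 9 was called in either direction; 2 ratios were positive and 7 negative, with a median of −0.13, which was −0.05 after removal of GC and length trends. In A2058, 9 were compared, 8 ratios were positive and 1 was negative, the median was 0.05, and none was called. Over all genes compared, 0.183% were called higher and 0.0914% lower in C8161, and 0.21% and 0.328% in A2058. CDH5 was the one gene of the endothelial list called between C8161 arms. Its choice used this contrast, so nothing is read from that count.

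**Figure D3:**
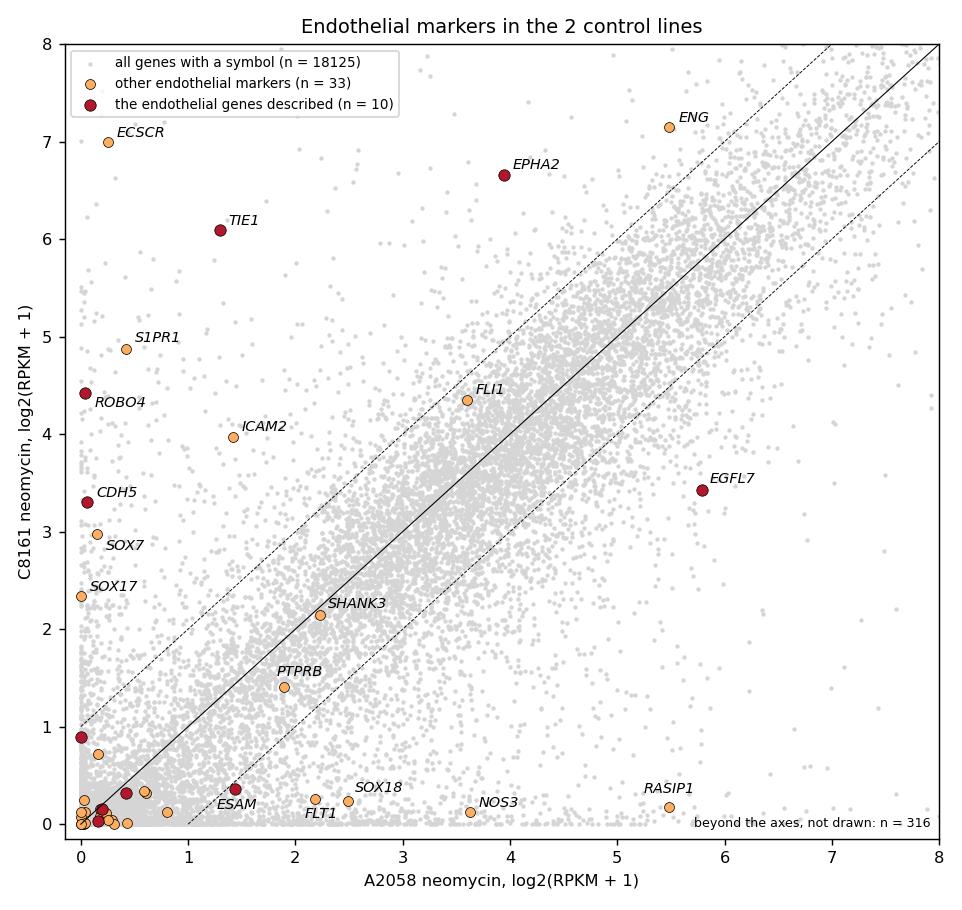
Level in the C8161 neomycin control (vertical axis) against that in the A2058 neomycin control (horizontal axis), both in log2(RPKM + 1), with grey points for genes with a symbol, red for the 10 genes described and orange for 33 other endothelial markers. Dashed lines mark a log2 difference of 1. TIE1, ROBO4, CDH5 and ECSCR lie near the vertical axis, RASIP1 near the horizontal axis, and most other markers in the corner near 0.

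Markers of other cell types were read from the same columns. The 10 leukocyte markers summed to 1.58 and 1.77 RPKM in C8161 with ATF3 and neomycin and to 3.95 and 3.76 in A2058, with PTPRC, which defines leukocytes, at most 0.43. The 5 platelet and megakaryocyte markers summed to 0.82 and 0.77 RPKM in C8161 and to 2.13 and 2.32 in A2058. The 6 fibroblast markers summed to 0.79 and 0.74 RPKM in C8161 and to 13.64 and 12.28 in A2058. The 8 mural cell markers summed to 6.15 and 6.30 RPKM in C8161 and to 12.82 and 12.94 in A2058.

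Between the C8161 arms these 4 sums, all low, differed by at most 0.19 RPKM, and a change in cell mix between arms was not tested. The 5 keratinocyte markers summed to 166.98 and 162.38 RPKM in C8161 and to 33.10 and 31.47 in A2058. SFN, which encodes the 14-3-3 sigma protein, gave 151.62 and 146.19 RPKM of the C8161 sums, while KRT5, KRT14 and TP63, which define the cell type, were at most 0.05 there. KRT10, a keratin of differentiating keratinocytes, had 15.26 and 16.17 RPKM in C8161, and 31.24 and 30.40 in A2058, most of the A2058 sums. In A2058, 1 keratinocyte marker and 1 leukocyte marker passed the call size between arms. SFN had 1.48 RPKM with ATF3 and 0.71 with neomycin, and FCER1G, named after its values were seen, had 0.39 and 1.17. Both lay near the 1 RPKM minimum, with 1 library per arm. Of all genes compared in A2058, 0.21% were called higher and 0.328% lower.

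The genes that act with each of the 10 were then described, in the same order of roles. Of the 13 VE-cadherin junction partners, 12 were compared in C8161 and 13 in A2058, and none was called between arms. CTNNB1, which encodes the beta-catenin that binds the VE-cadherin tail, had 113.60 RPKM with ATF3 and 117.52 with neomycin in C8161, and 265.70 and 262.50 in A2058. CTNND1, the p120-catenin that holds VE-cadherin at the surface, had 45.92 RPKM with ATF3 and 39.93 with neomycin in C8161, and 32.55 and 33.80 in A2058. Both catenins were thus present in the line with CDH5 and in the line nearly without it.

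JUP, the plakoglobin that can take the place of beta-catenin in the complex, differed most between the lines. It had 0.02 and 0.01 RPKM in C8161, where CDH5 was high, and 17.02 and 17.86 in A2058. Among 18 classical and related cadherins, CDH5 was second to CDH2 in both C8161 columns. CDH2, the N-cadherin of neural and mesenchymal cells, had 25.14 RPKM with ATF3 and 24.52 with neomycin in C8161, and 17.14 and 17.04 in A2058. CDH5 was the single cadherin of the 4 compared that was called between C8161 arms, where 0.183% of all genes compared were called higher. As its choice used this contrast, nothing is read from that count. CDH4, the R-cadherin, had 6.30 RPKM with ATF3 and 7.47 with neomycin in C8161.

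For KDR, ligands were present while the receptor was near 0. VEGFA, its principal ligand, had 12.27 RPKM with ATF3 and 10.84 with neomycin in C8161, and 21.29 and 20.93 in A2058. NRP1, a VEGF co-receptor, had 40.68 and 39.67 RPKM in C8161 and 8.49 and 8.0 in A2058. All 6 ligands and co-receptors compared in C8161 had positive ratios, as did 52.0% of all genes compared, with a median of 0.10 and none called; after removal of GC and length trends 5 of 6 were positive. In A2058, 4 of 7 were positive, with a median of 0.02 and none called.

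TIE1 stood apart from its own system in C8161. None of the 5 partner and ligand genes reached 1 RPKM there, and TEK, the receptor that TIE1 pairs with, was at most 0.10 RPKM in any column. In A2058, where TIE1 was low, ANGPT1, the agonist ligand of TEK, had 4.10 RPKM with ATF3 and 4.05 with neomycin, against 0.46 and 0.52 in C8161.

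EPHA2 was higher in C8161, and its ligands varied between the lines. EFNA1, the ephrin that binds EPHA2 with high affinity, had 0.47 RPKM with ATF3 and 0.39 with neomycin in C8161, and 14.80 and 12.36 in A2058. EFNA3 had 0.97 and 0.93 RPKM in C8161, and 12.98 and 10.69 in A2058. EFNA5 had 3.79 and 3.51 RPKM in C8161, and 1.65 and 1.38 in A2058, in the direction of EPHA2 and with a log2 ratio of 0.92 between the controls. In the neomycin columns 3 of the 4 ligands compared were called lower in C8161, where 20.7% of all genes compared were, and 2 were under quantile normalization, a median ratio of 0 and removal of GC and length trends. Between arms, all 4 ligands compared in A2058 had positive ratios, as did 51.3% of all genes compared there. Their median was 0.20 and none was called. In C8161 1 of 2 had a positive ratio.

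Among 14 EPH receptors, EPHA2 had the highest level per length in both C8161 columns. EPHB1 was next with 22.74 RPKM with ATF3 and 24.65 with neomycin there, and had 0.06 in both A2058 columns. In A2058 EPHA2 was second to EPHB4, which had 32.28 and 33.35 RPKM. None of the 5 EPH receptors compared in each line was called between arms.

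ROBO4 had SLIT2 beside it in C8161. SLIT2, a ligand of the roundabout receptors, had 3.87 RPKM with ATF3 and 3.34 with neomycin there, and 0.03 in both A2058 columns. ROBO1, the relative that SLIT2 binds directly, had 5.34 and 5.04 RPKM in C8161 and 13.96 and 14.91 in A2058. Of the 7 genes listed, 3 were compared in each line and none was called between arms.

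For ERG, the ETS family gave the setting. Of 27 family members, ERG ranked 17th in the C8161 ATF3 column, and ETS1, at 115.58 RPKM with ATF3 and 105.56 with neomycin, ranked first. Between the C8161 arms, 15 of the 17 members compared had positive ratios and 2 negative, with a median of 0.07 and none called. Of all genes compared, 52.0% had positive ratios. The 15 include ERG itself, which was chosen with its values known. The counts were the same under quantile normalization, a median ratio of 0 and removal of GC and length trends. In A2058, 7 of 17 were positive and 10 negative, with a median of −0.04, and none was called. ETS2, which lies beside ERG on chromosome 21, had 16.55 RPKM with ATF3 and 19.20 with neomycin in C8161, 1 of the 2 negative ratios.

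EGFL7 was high in the line where most of its listed Notch partners were high as well. HEY1, a Notch target, had 2.37 RPKM with ATF3 and 2.64 with neomycin in C8161, and 75.13 and 74.07 in A2058. NOTCH1, whose gene is the nearest of the table on the lower-coordinate side of EGFL7, had 4.24 and 4.50 RPKM in C8161 and 12.29 and 12.63 in A2058. In the neomycin columns 6 of the 7 Notch partners compared were called lower in C8161, as EGFL7 was, where 20.7% of all genes compared were. The count was 5 under quantile normalization and a median ratio of 0, and 4 after removal of GC and length trends. The other gene, NOTCH2, had 32.47 RPKM in C8161 and 21.84 in A2058. Between arms, none of the 5 compared in C8161 and none of the 7 in A2058 was called. For VWF, RAB27A, a small GTPase of its storage granules that many secretory and pigment cells also use, had 5.98 and 5.72 RPKM in C8161 and 13.23 and 12.06 in A2058. No gene of the 6 on the VWF list was called between arms.

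**Figure D4:**
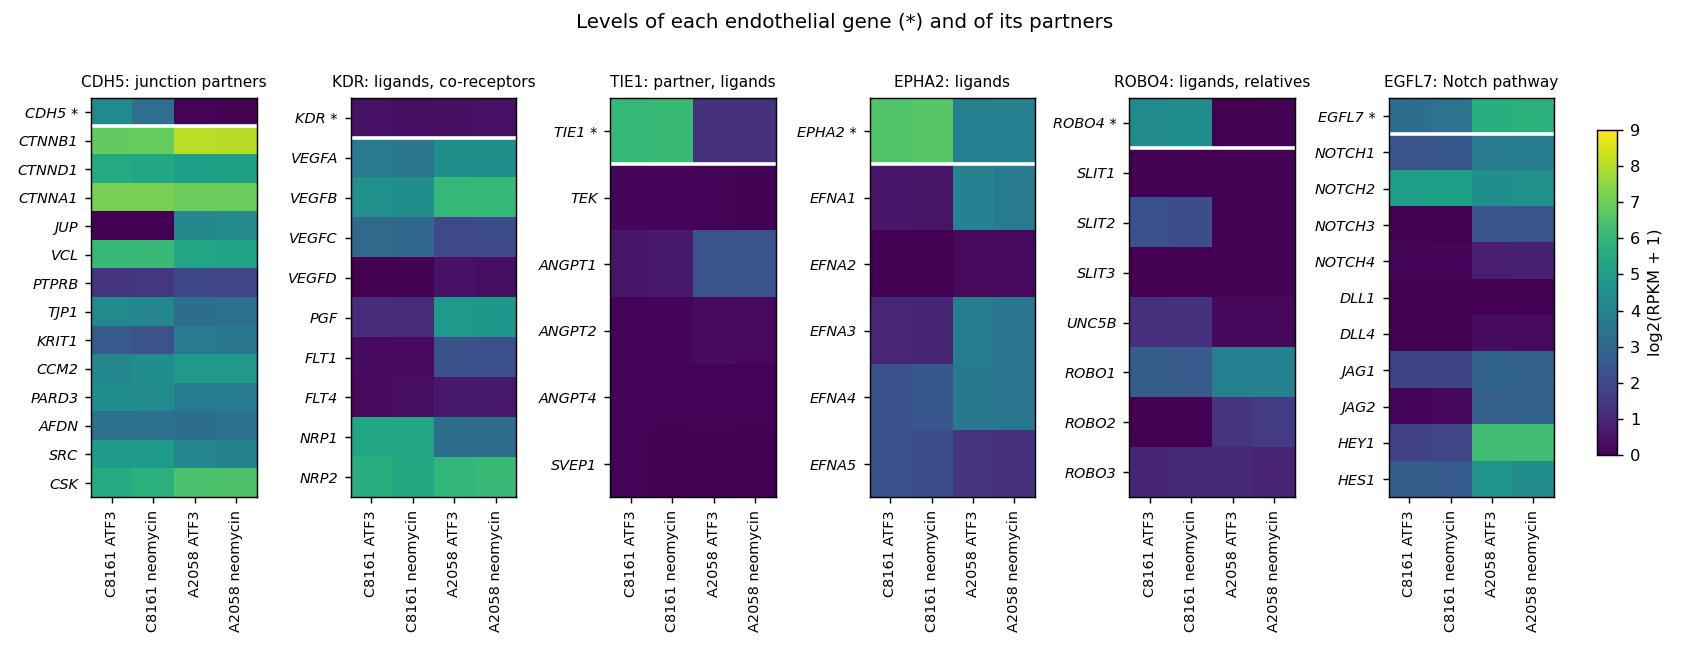
Heat map of levels in log2(RPKM + 1), with 1 panel for each of CDH5, KDR, TIE1, EPHA2, ROBO4 and EGFL7 (top row of its panel, starred) above its partners, and columns for C8161 ATF3, C8161 neomycin, A2058 ATF3 and A2058 neomycin from left to right. TIE1 and EPHA2 are bright in C8161 where the genes below them are darker, and EGFL7 is brighter in A2058 together with HEY1.

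A list of genes tied to vasculogenic mimicry in published work was described last. Without the 3 of the 10 that it holds, 37 genes were in the table, 30 were compared in C8161 and 32 in A2058, and none was called between arms. In C8161 14 ratios were positive and 16 negative, with a median of −0.01; after removal of GC and length trends the counts were 17 and 13. In A2058 20 were positive and 12 negative, with a median of 0.05.

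MMP2, a gelatinase of the matrix, had 31.24 RPKM with ATF3 and 23.70 with neomycin in C8161, and 24.51 and 24.67 in A2058. TFPI, an inhibitor of the tissue factor pathway, had 24.85 and 20.55 RPKM in C8161 and 5.46 and 4.25 in A2058. SNAI2 ran the other way between the C8161 arms, at 15.95 and 20.97 RPKM, a log2 ratio of −0.37. It had 20.95 and 22.57 RPKM in A2058. MMP1, the interstitial collagenase, had 1.03 and 1.29 RPKM in C8161 and 186.43 and 171.36 in A2058. CDH5, EPHA2 and TIE1 were thus all higher in C8161, while MMP1 was higher in A2058, and MMP2 was of like height in the 2 controls.

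Finally, the genes whose levels over the 4 columns lay nearest to each of the 10 were found by Euclidean distance in log2(RPKM + 1), for genes with at least 5 RPKM in a column. CDH5 was nearest to GNGT2, at a distance of 0.44, which had 15.18 RPKM with ATF3 and 11.65 with neomycin in C8161, and 0.06 and 0 in A2058. GDA and SLFN11 followed at 0.57 each. TIE1 was nearest to TBC1D2, at 0.17, followed by HCLS1 and F3, the tissue factor gene. EPHA2 was nearest to FSTL1, at 0.36, followed by PODXL and RHOF.

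ROBO4 was nearest to SHANK1, at 0.23, followed by IL1A. EGFL7 was nearest to PPP1R35, at 0.23, followed by GSN and NNT. CDH5 had the most distant nearest gene of the 5, with 4 points per gene that are dominated by the difference between lines.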

How the data were processed

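The authors deposited 1 table of RPKM values with 2 decimals for 18478 Entrez genes, per the file headers; the 2 C8161 columns are marked as covering the whole arm, without saying whether they are means or come from pooled reads. The submitters' processing notes name Bowtie2, RSEM and hg38; versions, annotation, filters and strandedness: not given in the sources used here. Values were used as deposited. Ratios were log2(RPKM + 1) differences over genes with at least 1 RPKM in 1 of the 2 columns.

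With 1 value per arm no spread between libraries could be measured and no test was run. The 10 genes, the marker and partner lists and the call sizes were chosen with earlier results of these data known. Besides the 10, the text names ATF3; from each list, genes with the largest ratios in each line (up to 4 in C8161 and 3 in A2058, mean of at least 2 RPKM) and up to 3 with the largest line difference (at least 5 RPKM); the 3 genes nearest in level pattern; the nearest table gene on each side; and cell type markers. Some genes that this rule picks are not reported here.

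Symbols and coordinates came from RefSeq (GRCh38.p14), lengths and GC content from GENCODE 29. Values of low genes in the A2058 columns fell on approximate steps, which gave about 17600000 reads with ATF3 and 17550000 with neomycin. Read numbers per gene also took the longest transcript as the length of the gene, so they are rough. The C8161 columns gave no usable step, so their depth is unknown. Of the 10, VWF shared 8.67% of its 50-base transcript stretches with other genes, mainly its pseudogene, and the other 9 shared under 0.5%. Python 3.11.15, pandas 2.3.3 and statsmodels 0.14.6 were used, and the scripts were tested on simulated data.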

Additional observations from a re-analysis of the deposited data

How the results depend on the processing

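Alternatives were a pseudocount of 0.1 or 0.5, no minimum level, a minimum of 5 RPKM, quantile normalization, a median ratio of 0, and removal of GC and length trends. PECAM1, KDR and VWF were compared in no pair of columns, so the values came from the other genes of the 10. Of 155 such values, 149 kept their side of the call size, 3 lost a call, 3 gained one and 0 reversed a call. Changing the minimum only alters which genes are compared. Values under no minimum and under a minimum of 5 RPKM therefore kept their side by construction. The C8161 ratio of CDH5 between arms ranged from 0.93 to 1.03 and stayed called.

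Between C8161 arms the genes called higher of the 10 became 2 in place of 1 with a pseudocount of 0.1, as ERG joined. In A2058 1 in place of 0 was called higher with a pseudocount of 0.1 and 1 with 0.5, in both cases ESAM. In the neomycin columns the genes called lower in C8161 became 1 in place of 2 with a minimum of 5 RPKM, quantile normalization, a median ratio of 0 and removal of trends; in the ATF3 columns they became 1 with a minimum of 5 RPKM.

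Over all genes, 20 were called higher in C8161 with ATF3, and 46 with a pseudocount of 0.1 and 12 with a minimum of 5 RPKM. Called lower were 10, and 27 and 20 with pseudocounts of 0.1 and 0.5, 6 with that minimum, and 6 once trends were removed. In A2058 25 were called higher, and 100 and 53 with those pseudocounts, 6 with that minimum and 16 after removal of trends; 39 were called lower, and 93 and 61 with those pseudocounts and 6 with that minimum. Smaller pseudocounts admit larger ratios of low genes and the higher minimum leaves fewer genes by construction.

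No paired analysis was possible because each arm has 1 value per gene, and no library was left out for the same reason.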

Other observations

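Genes of the table nearest to the 10 on the chromosome were read as values, without a test. CDH5 lay between CDH11, 1243 kb away, and BEAN1, 22.5 kb away, and both were at most 0.05 RPKM in every column. TIE1 lay 15.1 kb from C1orf210, which had 0.35 RPKM in both C8161 columns, and 0.48 with ATF3 and 0.45 with neomycin in A2058. ROBO4 lay 2.22 kb from ROBO3, which had 0.92 and 0.99 RPKM in C8161 and 1.03 and 0.83 in A2058, and 56.3 kb from CCDC15, which had 2.22 and 2.30 RPKM in C8161 and 1.16 and 1.41 in A2058. EPHA2 lay between FAM131C and ARHGEF19; FAM131C had at most 0.87 RPKM, and ARHGEF19 had 1.12 and 1.19 RPKM in C8161 and 2.86 and 2.82 in A2058.

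EGFL7 lay 465 bases from AGPAT2, which encodes an acyltransferase of phospholipid synthesis and had 35.23 RPKM with ATF3 and 43.85 with neomycin in C8161, and 62.11 and 58.92 in A2058. Its log2 ratio between arms was −0.31 in C8161 and 0.07 in A2058, where EGFL7 had −0.17 and −0.15. CD9, a tetraspanin gene 75.3 kb from VWF, had 138.03 RPKM with ATF3 and 107.95 with neomycin in C8161, a log2 ratio of 0.35, while VWF itself stayed near 0.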
